A study of Mus musculus with 24 samples.

Results

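The enzymes that build triglyceride from glycerol-3-phosphate were followed by their mRNA in brown adipose tissue (BAT) of mice kept warm or cold, with and without deletion of the corepressor genes TBLR1 and TBL1. The group held 9 of the 12615 genes in the count table, found by matching Ensembl identifiers to the symbols Gpam, Gpat3, Gpat4, Agpat2, Agpat3, Lpin1, Lpin2, Dgat1 and Dgat2. The other 8 enzymes were listed for their function, whereas Dgat2 was chosen by its own values in these libraries, being higher under the BATdKO label at 8°C with no change on cold exposure in control mice. Each comparison holds a group whose Dgat2 values entered that choice, so its values are given as a description without a test. On GRCm38 the genes of the first steps lay apart from each other, with Gpam at chr19:55067268-55127238 (minus strand), Gpat3 at chr5:100845713-100899102 (plus strand), Gpat4 at chr8:23171265-23208346 (minus strand), Agpat2 at chr2:26593057-26604417 (minus strand) and Agpat3 at chr10:78269178-78352489 (minus strand). The later steps were encoded by Lpin1 at chr12:16535669-16610966 (minus strand), Lpin2 at chr17:71182560-71249817 (plus strand), Dgat1 at chr15:76502015-76511953 (minus strand) and Dgat2 at chr7:99153658-99182719 (minus strand). All 9 genes passed the filter on low counts and were among the 12485 genes tested.

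Triglyceride is assembled on the glycerol backbone in a short series of steps. Glycerol-3-phosphate acyltransferases (GPATs) add a first fatty acid, acylglycerol-phosphate acyltransferases (AGPATs) add another to form phosphatidic acid, lipins remove the phosphate to give diacylglycerol, and diacylglycerol acyltransferases (DGATs) add the last fatty acid. In brown adipocytes the product is stored in many small lipid droplets, whose fatty acids fuel heat production in the cold.

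RNA was measured by 3′ tag sequencing in 24 mice that formed 4 groups of 6. All mice carried floxed alleles of both TBLR1 and TBL1 and received tamoxifen, and BATdKO mice also carried CreERT2, a tamoxifen-activated recombinase driven by the Ucp1 promoter, which Cre- mice lacked. Deletion was thus aimed at cells that express Ucp1, and other cells of the tissue keep both genes. Cre- 30C and BATdKO 30C mice were kept at 30°C for 4 days, and Cre- 8C and BATdKO 8C mice at 8°C for 6 days by the labels (3 days by the study's text) after single days at 18, 16 and 12°C. The mice were raised at 22°C and entered the temperature protocol 3 weeks after the last tamoxifen dose. The labels describe females treated with tamoxifen at an age given as 5 years, where the study's methods give 5 weeks and its text on these data gives males. The names m1 to m6 stand for the mice within a group.

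The total count ranged from 699703 to 11527643 per library, with the lowest in Cre- 30C m4 and the next lowest, a BATdKO 8C mouse, at 2738613. Levels are CPM, counts scaled to the library size as adjusted by TMM, and since each transcript gives tags only at its 3′ end, CPM carry no length term and may be compared between genes. The targeted genes did not check the labels in the direction of deletion. Tbl1xr1, which encodes TBLR1, was at 39.9 ± 4.01 CPM in BATdKO 8C against 20.9 ± 2.24 in Cre- 8C (SD, n = 6), and Tbl1x, which encodes TBL1, at 53.8 ± 6.76 against 40.7 ± 1.88. At 8°C Tbl1xr1 did not overlap, at 33.75 to 44.33 CPM in BATdKO against 18.16 to 24.59 in Cre- mice, whereas Tbl1x did. The position of the floxed exons is not given in the sources used here. A 3′ tag outside the deleted part need not fall with deletion, and why the tags were higher under the BATdKO label was not tested. Cre- and BATdKO below therefore stand for the labels of the libraries, and every direction between them rests on those labels. At 30°C both m6 mice stood apart from their groups. Cre- 30C m6 had 38.6 CPM of Tbl1xr1 where the other Cre- mice had 16.5 to 24.6, and BATdKO 30C m6 had 17.0 where the others had 29.8 to 42.0. For Ucp1, the uncoupling protein that defines brown adipocytes, the same mice had 547.9 CPM against 28.9 to 133 in the other Cre- mice and 84.7 against 217.4 to 412.2 in the other BATdKO mice. For both targeted genes the m6 mouse of each label lay within the range of the other 5 mice of the other label, and Ucp1 in BATdKO 30C m6 did so too. Whether the labels of these 2 mice were exchanged was not tested, and all genotype and cold values that use the 30°C groups rest on those labels. Results that use the 30°C groups are given with all mice. Some of them are also given without both m6 mice, a choice made after their values were seen.

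The tissue name BAT rests on the labels and the study's text. Markers of brown adipocytes were present but not the main content of the libraries. The 9 brown adipocyte markers summed to 473 to 3690 CPM over the 24 libraries and 6 general adipocyte markers to 630 to 3950 CPM, with none at 0 in every library. The 14 hepatocyte markers in the table, albumin among them, summed to 36000 to 53000 CPM, or 3.45 to 5.45% of all counts, in every library. The source of these hepatocyte tags was not tested. Several of the enzymes, Dgat2, Gpam and Lpin1 among them, are known to be expressed in liver as well as in fat, and their part from either cell type was not tested. The hepatocyte sum ranged from 40300 to 48000 CPM in Cre- 8C and from 41200 to 53000 CPM in BATdKO 8C. In a bulk tissue a lower level may reflect fewer cells of a type or less RNA per cell, and these cannot be told apart.

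**Figure D1:**
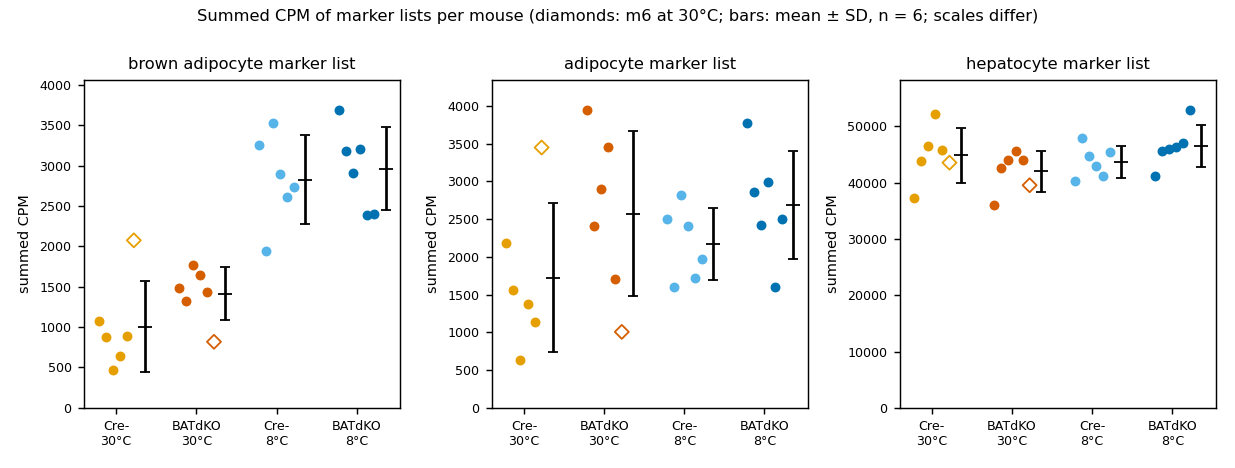
Summed CPM of the brown adipocyte, adipocyte and hepatocyte marker lists (vertical axes, linear from 0, different scales) in each mouse of the 4 groups, with diamonds for the m6 mice at 30°C and bars for mean ± SD, n = 6. The brown adipocyte sum was higher in both 8°C groups, with medians of 2820 and 3050 CPM against 885 and 1460 CPM at 30°C, whereas the hepatocyte sum lay between 36000 and 53000 CPM throughout.

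Dgat2, which encodes a diacylglycerol acyltransferase, had the highest mean level of the 9 enzymes in each group. It ranged from 255.8 to 304.2 CPM with a median of 264.7 in Cre- 8C. In BATdKO 8C it ranged from 458.2 to 672.2 CPM with a median of 506. The lowest BATdKO 8C mouse lay above every mouse of the other 3 groups, the highest of which was Cre- 30C m6 at 399.4 CPM. At 30°C Dgat2 ranged from 228.3 to 399.4 CPM in Cre- mice (median 251.3) and from 227.6 to 349.8 CPM in BATdKO mice (median 305.1), and these 2 groups and Cre- 8C overlapped. By group mean the order was BATdKO 8C at 521.5 ± 76.5 CPM, BATdKO 30C at 298.4 ± 45.0, Cre- 30C at 270.6 ± 64.8 and Cre- 8C at 270.3 ± 17.5 (SD, n = 6). The means of the last 3 differed by less than the SD of either 30°C group, though not by less than that of Cre- 8C.

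These values chose Dgat2, so the differences are descriptive. Under the BATdKO label at 8°C Dgat2 was 1.93-fold the level under the Cre- label, a log2 fold change of 0.95 with a standard error (SE) of 0.12. On cold exposure its log2 fold change was -0.01 (SE 0.12) in Cre- mice and 0.80 (SE 0.12) in BATdKO mice. The difference between these, the interaction of genotype and temperature, was 0.81 on the log2 scale (SE 0.17). With both m6 mice left out the corresponding values were 0.94 (SE 0.08) for genotype at 8°C, 0.13 (SE 0.09) and 0.73 (SE 0.09) for cold in Cre- and BATdKO mice, and 0.60 (SE 0.12) for the interaction. The marker lists beside these groups also differed in part. Ighm, the only one of 7 lymphocyte markers in the table, lay between 13.1 and 27.4 CPM in BATdKO 8C and between 6.82 and 8.52 CPM in Cre- 8C, and 11 skeletal muscle markers summed to 0.978 to 153 and to 3.26 to 1520 CPM. The part of either in the Dgat2 difference was not tested.

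**Figure D2:**
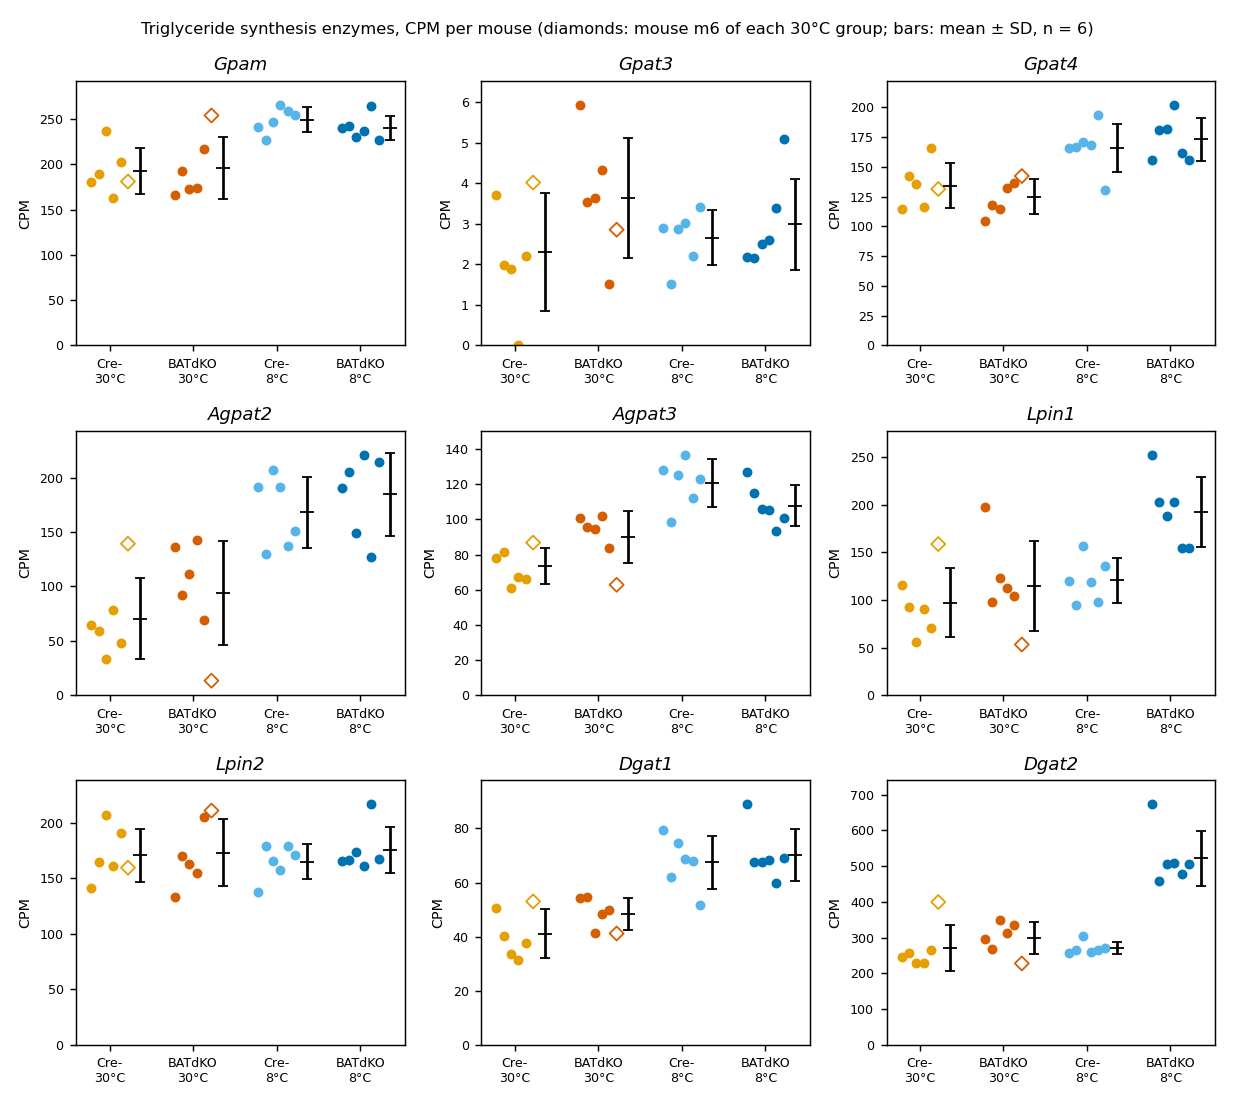
CPM (vertical axis, linear from 0) of each of the 9 enzymes in each mouse of the 4 groups (horizontal axis), with diamonds for the m6 mice at 30°C and bars for mean ± SD, n = 6. The 6 BATdKO 8C mice sat between 458.2 and 672.2 CPM for Dgat2, above the other 18 mice, while Lpin2 overlapped between all groups and Agpat2 was spread from 13.2 to 142.2 CPM in BATdKO 30C.

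At 30°C the values of Dgat2 under the labelled genotypes overlapped with all mice. The log2 fold change was 0.13 (SE 0.12), and the difference in mean log2 CPM was 0.16, less than the standard deviation of 0.27 within groups. The Cre- 30C values entered the choice of Dgat2, so no test is given here either. Without both m6 mice the BATdKO 30C mice lay at 268.3 to 349.8 CPM and the Cre- 30C mice at 228.3 to 264.7 CPM, with a log2 fold change of 0.35 (SE 0.09). These mice held the highest Dgat2 value of Cre- 30C and the lowest of BATdKO 30C, so that the absence of overlap follows from leaving them out. Without Cre- 30C m6 alone the difference in mean log2 CPM was 0.27, and without BATdKO 30C m6 alone it was 0.23.

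Dgat1 encodes the other diacylglycerol acyltransferase, which is unrelated to DGAT2 in sequence, and lay well below Dgat2. It ranged from 31.4 to 53.0 CPM in Cre- 30C and from 51.9 to 79.5 CPM in Cre- 8C, with medians of 39.0 and 68.4 CPM. In BATdKO mice it ranged from 41.2 to 54.5 CPM at 30°C and from 59.8 to 88.9 CPM at 8°C. The cold and warm BATdKO mice did not overlap, whereas the Cre- groups overlapped slightly. Dgat1 rose on cold exposure in both genotypes, by a log2 fold change of 0.68 (SE 0.12, adjusted p = 0.000522) in Cre- and 0.53 (SE 0.12, adjusted p = 0.00819) in BATdKO mice. Between the labelled genotypes it gave 0.05 at 8°C (95% confidence interval -0.19 to 0.29, adjusted p = 0.964) and 0.20 at 30°C (-0.05 to 0.45, adjusted p = 0.611), so that no difference was detected at either temperature.

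The ratio of Dgat2 to Dgat1 counts in a library does not depend on how library size is scaled. Its log2 lay between 1.69 and 2.39 in Cre- 8C, with a mean of 2.01 ± 0.23, and between 2.76 and 3.00 in BATdKO 8C, with a mean of 2.89 ± 0.08 (SD, n = 6). At 8°C the labelled genotypes did not overlap, which follows from the choice of Dgat2. At 30°C the mean log2 ratio was 2.72 ± 0.23 in Cre- and 2.62 ± 0.28 in BATdKO mice. The difference was -0.09 with all mice and -0.02 without both m6 mice, in both cases less than the spread within groups.

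**Figure D3:**
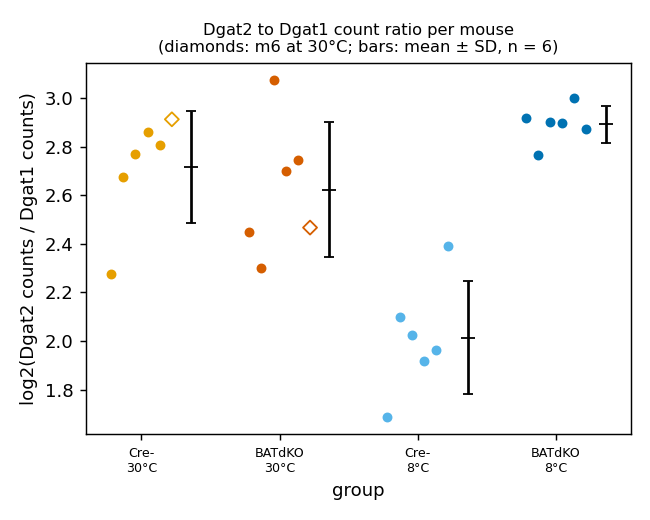
Log2 ratio of Dgat2 to Dgat1 counts (vertical axis) in each mouse of the 4 groups (horizontal axis), with diamonds for the m6 mice at 30°C and bars for mean ± SD, n = 6. Cre- 8C was the lowest group, at 1.69 to 2.39, and the other 3 groups had means between 2.62 and 2.89.

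Cold exposure was compared within each genotype, which asks how the tissue of each labelled genotype changed from 30°C to 8°C. In Cre- mice 5 of the 8 enzymes listed by function rose and 0 fell, where 5.57% of all tested genes were called higher and 3.59% lower at an adjusted p under 0.1. Their median log2 fold change was 0.33, against -0.02 over all tested genes. In BATdKO mice 5 of 8 rose and 0 fell, where 3.76% of tested genes were called higher and 3.31% lower, with a median of 0.38 against -0.00261 over all genes. Gpam, Gpat4, Agpat2 and Dgat1, 4 enzymes in all, rose in both genotypes, while Agpat3 passed the test in Cre- mice and Lpin1 in BATdKO mice. The brown adipocyte marker sum was also higher at 8°C, at 1940 to 3530 against 473 to 2070 CPM in Cre- and 2380 to 3690 against 817 to 1770 CPM in BATdKO mice. In CPM Ucp1 differed most, with means of 1539 against 176.8 CPM in Cre- and 1685 against 290 CPM in BATdKO mice. Relative to its level at 30°C Dio2 rose more, at 18.9 against 0.621 and 29.4 against 1.63 CPM. Cidea and Adrb3 were lower at 8°C in BATdKO mice, at 373.6 against 620.3 and 24.7 against 35.4 CPM. The general adipocyte sum had medians of 2190 against 1470 CPM in Cre- and 2680 against 2650 CPM in BATdKO mice. The part of cell content in the rises of the enzymes was not tested. Temperature also went with the numbering of the libraries, and these cannot be told apart.

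Agpat2, the AGPAT whose loss in humans causes lipodystrophy, showed the widest spread and the largest rise among the tested enzymes. It ranged from 33.0 to 139.2 CPM in Cre- 30C (median 61.6) and from 130 to 207.4 CPM in Cre- 8C (median 171.2). In BATdKO mice it ranged from 13.2 to 142.2 CPM at 30°C (median 101.7) and from 127.3 to 221 CPM at 8°C (median 197.7). The m6 mice at 30°C were the highest Cre- mouse, at 139.2 CPM, and the lowest BATdKO mouse, at 13.2 CPM. The general adipocyte marker sum in the same mice was 3449 and 1006 CPM, the highest of Cre- 30C and the lowest of BATdKO 30C. Agpat2 rose on cold exposure by 1.27 on the log2 scale in Cre- mice (SE 0.34, adjusted p = 0.0225) and by 0.97 in BATdKO mice (SE 0.33, adjusted p = 0.0993), the latter close to the threshold and lost in 18 of the 24 fits that left out 1 mouse, with adjusted p from 0.0584 to 0.186. Without both m6 mice the rises were 1.63 (SE 0.20, adjusted p = 3.18e-06) and 0.74 (SE 0.19, adjusted p = 0.0205). Agpat2 shares exon sequence with Egfl7, an endothelial gene on the other strand, and whether reads were counted by strand is not given in the sources used here.

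Agpat3, an AGPAT of the endoplasmic reticulum and Golgi, was at 61.1 to 86.8 CPM in Cre- 30C and at 98.3 to 136.8 CPM in Cre- 8C, with no overlap. It rose by 0.71 on the log2 scale in Cre- mice (SE 0.11, adjusted p = 9.54e-05). In BATdKO mice it ranged from 62.8 to 102.1 CPM at 30°C and from 93.2 to 126.8 CPM at 8°C, with a log2 fold change of 0.26 that did not pass the test (SE 0.11, adjusted p = 0.199). The difference between these cold effects was -0.45 on the log2 scale (SE 0.15, unadjusted p = 0.00726, adjusted p = 0.424), so a difference between genotypes was not shown over all mice. With both m6 mice left out it was -0.59 (SE 0.13) with an adjusted p of 0.0587, which passed the threshold. These mice were the highest of Cre- 30C and the lowest of BATdKO 30C for Agpat3. Like Agpat2, Agpat3 shares exon sequence with an annotated gene on the other strand, Gm40709.

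Among the GPATs, Gpam and Gpat4 moved with temperature and Gpat3 did not pass the test. Gpam encodes the mitochondrial GPAT and ranged from 162.7 to 236.9 CPM in Cre- 30C and from 227 to 265.3 CPM in Cre- 8C. It rose by 0.37 (SE 0.09, adjusted p = 0.0151) in Cre- and by 0.29 (SE 0.09, adjusted p = 0.0712) in BATdKO mice on the log2 scale, and the call in BATdKO mice was lost in 8 of the 24 fits without 1 mouse. Gpat4, a GPAT of the endoplasmic reticulum that can move to lipid droplets, ranged from 104.4 to 142.2 CPM in BATdKO 30C and from 155.5 to 201.8 CPM in BATdKO 8C without overlap. It rose by 0.47 (SE 0.10, adjusted p = 0.00415) in BATdKO and by 0.30 (SE 0.10, adjusted p = 0.0758) in Cre- mice, where the groups overlapped and the call was lost in 8 of the 24 such fits. Gpat3, the other GPAT of the endoplasmic reticulum, was the lowest of the 9 enzymes, with 0 to 5.93 CPM over the 24 libraries and at most 51 counts in any of them. Its 0 counts in Cre- 30C m4, the shallowest library, allow up to 4.1 CPM (3 counts, counting error only), which is no lower than the group median of 2.1 CPM. Gpat3 also shares exon sequence with annotated genes on each strand, so its counts are uncertain.

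The lipins differed from each other. Lpin1, a phosphatidic acid phosphatase that also acts as a transcriptional coactivator, ranged from 94.3 to 156.3 CPM in Cre- 8C (median 119.5) and from 154.6 to 252.7 CPM in BATdKO 8C (median 195.6). One Cre- mouse, m3, reached into the BATdKO range. At 30°C it ranged from 55.5 to 158.8 CPM in Cre- and from 53.2 to 197.8 CPM in BATdKO mice, again with m6 as the highest Cre- and the lowest BATdKO mouse. Lpin1 rose on cold exposure in BATdKO mice by 0.74 on the log2 scale (SE 0.23, adjusted p = 0.0605, lost in 6 of the 24 such fits), and its value in Cre- mice was 0.30 (SE 0.23, adjusted p = 0.525). The difference between these cold effects was 0.44 (SE 0.32, adjusted p = 0.758) and was not shown. Leaving out both m6 mice gave 0.59 (SE 0.18, adjusted p = 0.0615) in BATdKO and 0.51 (SE 0.18, adjusted p = 0.0875) in Cre- mice. Lpin2, its relative with a main role in liver, stayed between 132.8 and 216.5 CPM over all 24 libraries, with cold log2 fold changes of -0.05 and 0.02 (SE 0.11 in both, adjusted p = 0.871 and 0.975).

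**Figure D4:**
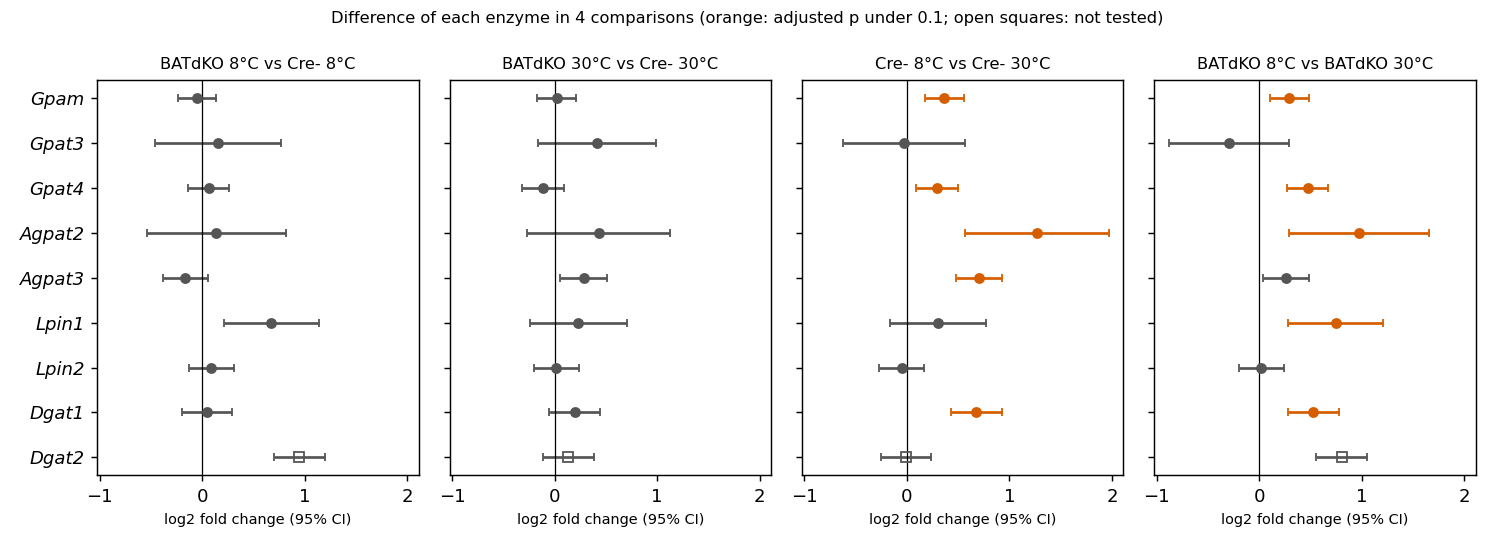
Log2 fold change with its 95% confidence interval (horizontal axis) for each enzyme (rows) in 4 comparisons (panels), with orange for an adjusted p under 0.1 by edgeR and open squares for Dgat2, which was not tested. Orange points appear in the cold panels alone, with Agpat2 at 1.27 and 0.97, and no tested enzyme passed in either genotype panel.

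Promoters are shown for 4 of the enzymes that rose in the cold, Gpam and Agpat2 in both genotypes, Agpat3 in Cre- and Lpin1 in BATdKO mice. RefSeq promoters on GRCm38.p6 were matched for 6 of the 9 enzymes, and those of Dgat1, Dgat2 and Gpat4 were not matched. Each sequence covers the 250 bases before an annotated start, 5′ to 3′ on the gene's strand. Capitals mark matches, on either strand, to any of 6 motifs. The half-site of nuclear receptors was searched as AGGTCA. The E-box, bound by many helix-loop-helix factors, was searched as CACGTG. The box bound by the factor NF-Y was searched as CCAAT. The GC box of Sp1-type factors was searched as GGGCGG. The core promoter element named TATA box was searched as TATAAA. The cAMP response element, through which protein kinase A signalling acts on genes, was searched as TGACGTCA.
Gpam first start, chr19:55127239-55127488, minus strand: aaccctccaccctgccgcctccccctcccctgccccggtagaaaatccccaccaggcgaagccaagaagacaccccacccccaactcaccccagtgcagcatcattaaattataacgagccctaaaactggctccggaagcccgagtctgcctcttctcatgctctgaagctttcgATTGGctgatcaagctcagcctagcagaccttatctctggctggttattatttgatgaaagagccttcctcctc
Gpam second start, chr19:55099478-55099727, minus strand: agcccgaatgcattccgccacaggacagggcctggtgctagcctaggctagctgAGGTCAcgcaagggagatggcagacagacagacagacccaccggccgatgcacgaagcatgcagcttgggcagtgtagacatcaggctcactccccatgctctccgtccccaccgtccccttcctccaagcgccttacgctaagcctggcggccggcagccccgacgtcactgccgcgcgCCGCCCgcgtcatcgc
Agpat2, chr2:26604418-26604667, minus strand: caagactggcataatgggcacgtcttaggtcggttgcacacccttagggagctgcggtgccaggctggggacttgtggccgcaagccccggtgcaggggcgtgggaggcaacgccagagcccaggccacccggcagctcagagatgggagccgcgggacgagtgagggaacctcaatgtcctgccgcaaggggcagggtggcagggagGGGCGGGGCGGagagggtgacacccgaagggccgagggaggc
Agpat3, chr10:78351701-78351950, minus strand: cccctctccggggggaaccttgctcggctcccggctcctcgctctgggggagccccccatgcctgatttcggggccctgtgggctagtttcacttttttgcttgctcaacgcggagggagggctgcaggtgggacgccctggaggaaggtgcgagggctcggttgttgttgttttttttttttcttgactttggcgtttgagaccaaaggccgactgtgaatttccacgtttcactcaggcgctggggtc
Lpin1, chr12:16610967-16611216, minus strand: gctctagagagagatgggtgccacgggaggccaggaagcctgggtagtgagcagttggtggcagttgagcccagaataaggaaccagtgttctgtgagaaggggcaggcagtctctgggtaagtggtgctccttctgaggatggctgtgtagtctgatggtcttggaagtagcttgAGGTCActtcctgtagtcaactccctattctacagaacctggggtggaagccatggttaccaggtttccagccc

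Few of the motifs were shared among these promoters. AGGTCA was present once before the second Gpam start, 196 bases upstream, and once in Lpin1, 74 bases upstream, and occurred in 14% of all 32851 promoters of this length in the table. GGGCGG was present in 2 overlapping copies in Agpat2, 42 and 37 bases upstream, and once before the second Gpam start, and occurred in 32.7% of all promoters. CCAAT was present before the first Gpam start in reverse orientation, against 33.8% of all promoters. No match to any of the 6 motifs lay in the Agpat3 window. The E-box, the TATA box and the cAMP response element, held by 6.02%, 12.4% and 1.55% of all promoters, had no match in these 5 windows. Tags at the 3′ end do not show which Gpam start was in use.

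At 8°C the labelled genotypes were compared to ask what differs with deletion in the cold, and 0 of the 8 tested enzymes passed the adjusted threshold by edgeR, where 0.697% of tested genes were called higher and 1.12% lower under the BATdKO label. The median log2 fold change of the 8 was 0.07, against -6.08e-05 over all genes. Beside 9.24% of all tested genes, 1 of the 8 had an unadjusted p under 0.05 by edgeR. This was Lpin1, at 0.67 on the log2 scale (SE 0.23, 95% confidence interval 0.21 to 1.14, unadjusted p = 0.00614, adjusted p = 0.192). Without both m6 mice, which belong to neither 8°C group but enter the shared estimate of spread, Lpin1 kept a log2 fold change of 0.67 (SE 0.17) with an adjusted p of 0.0354, and the fit to the 8°C groups alone gave an adjusted p of 0.00231. The remaining 7 enzymes had log2 fold changes from -0.16 for Agpat3 to 0.15 for Gpat3, all with intervals that included 0. Gpam and Gpat4 were the most tightly bounded, at -0.24 to 0.14 and -0.14 to 0.26.

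At 30°C 0 of the 8 tested enzymes passed by edgeR, where 0% of tested genes were called in either direction. DESeq2 called 0 of the 8 as well and 90 genes in all, and 1303 genes had an unadjusted p under 0.05 by edgeR. Of the 8, Agpat3 alone had an unadjusted p under 0.05 by edgeR, beside 10.4% of all tested genes. The log2 fold change of Agpat3 was 0.28 (SE 0.11, adjusted p = 0.354). When both m6 mice were left out, 2 of 8 passed, where 4% of 12500 tested genes were called. These were Agpat2 at 1.02 on the log2 scale (SE 0.20, adjusted p = 0.00563) and Agpat3 at 0.42 (SE 0.10, adjusted p = 0.0172), both higher under the BATdKO label. Agpat2 then had 33.0 to 77.9 CPM in Cre- 30C and 68.6 to 142.2 CPM in BATdKO 30C, which overlapped, and Agpat3 had 61.1 to 81.5 and 83.7 to 102.1 CPM, which did not. For both enzymes the m6 mice were the highest of Cre- 30C and the lowest of BATdKO 30C, at 86.8 and 62.8 CPM for Agpat3. The absence of overlap for Agpat3 thus follows from leaving them out. For the interaction 0 of 8 enzymes passed by edgeR and 0 by DESeq2, where edgeR called 0.0961% of tested genes in either direction. By edgeR 1 of the 8 had an unadjusted p under 0.05, beside 8.05% of all tested genes.

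Other genes of the pathway were taken from a list of 39, of which 28 were in the table and all 28 were tested, and the rest were not analysed here. In Cre- mice 6 rose and 2 fell on cold exposure, beside 5.57% and 3.59% of all tested genes, and in BATdKO mice 4 rose and 1 fell, beside 3.76% and 3.31%. All 5 genes called in BATdKO mice were also called in Cre- mice. The median log2 fold change of the 28 was 0.04 in Cre- and 0.10 in BATdKO mice. Between the labelled genotypes 0 were higher and 1 was lower at 8°C, beside 0.697% and 1.12% of all tested genes, and 0 of 28 passed at 30°C by edgeR, where 6 had an unadjusted p under 0.05, beside 10.4% of all tested genes, and DESeq2 called 1. For the interaction 0 of 28 passed by edgeR or DESeq2, with 3 at an unadjusted p under 0.05, beside 8.05% of all tested genes.

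Supply of glycerol-3-phosphate held the largest cold responses. Gk, the glycerol kinase that recycles glycerol, was at 15.9 to 28.7 CPM in Cre- 30C and 39.8 to 60.2 CPM in Cre- 8C, and at 18.9 to 26.1 and 43.6 to 67.1 CPM in the BATdKO groups. It rose by 1.25 (SE 0.12, adjusted p = 1.85e-07) and 1.26 (SE 0.12, adjusted p = 2.47e-07) on the log2 scale, with no overlap in either genotype. Gpd1, which makes glycerol-3-phosphate from a glycolytic intermediate, rose by 1.55 (SE 0.22, adjusted p = 2.25e-05) in Cre- and by 1.04 (SE 0.21, adjusted p = 0.00308) in BATdKO mice. Its relative Gpd1l fell by 0.37 on the log2 scale in Cre- mice (SE 0.12, adjusted p = 0.0673). With all mice the interaction for Gpd1 was -0.50 (SE 0.30, adjusted p = 0.682). Genotype at 30°C then gave 0.45 for Gpd1, 0.51 for Pck1 and 0.52 for Acsl1 (adjusted p = 0.452, 0.479 and 0.149). Without both m6 mice the interaction for Gpd1 was -0.91 (SE 0.21, adjusted p = 0.0678). In that fit Gpd1, Pck1 and Acsl1 were higher in BATdKO than in Cre- mice at 30°C, at 0.85 (SE 0.16, adjusted p = 0.00264), 0.93 (SE 0.20, adjusted p = 0.0123) and 0.77 (SE 0.10, adjusted p = 3.54e-05). The m6 mice held the highest Cre- 30C and the lowest BATdKO 30C value of each of these genes, so leaving them out widened the differences. Pck1 encodes a phosphoenolpyruvate carboxykinase that also feeds glycerol synthesis. On cold exposure the fit without both m6 mice gave Gpd1 1.84 (adjusted p = 1.27e-08) in Cre- and 0.93 (adjusted p = 0.000281) in BATdKO mice. It gave Pck1 0.82 (adjusted p = 0.00837) in Cre- mice, against 0.56 (adjusted p = 0.218) with all mice. In BATdKO mice Pck1 was then at -0.07 (adjusted p = 0.917).

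Fatty acids enter the pathway as acyl-CoA made by ACSL synthetases. Acsl5 was at 164.9 to 252.1 CPM in Cre- 8C and at 115.9 to 165.1 CPM in BATdKO 8C, overlapping only at the edge. It was lower under the BATdKO label at 8°C by a log2 fold change of -0.49 (SE 0.10, adjusted p = 0.00679), the opposite direction to Dgat2. In the cold it rose by 0.90 (SE 0.10, adjusted p = 1.15e-06) in Cre- and by 0.60 (SE 0.10, adjusted p = 0.000373) in BATdKO mice. Acsl1, the main synthetase of adipocytes, rose by 0.41 in Cre- mice (SE 0.13, adjusted p = 0.0667). At 8°C every BATdKO mouse, at 861.1 to 1161 CPM, was above every Cre- mouse, at 607 to 819 CPM, but its log2 fold change of 0.43 (SE 0.13) had an adjusted p of 0.144 with all mice and 0.00689 without both m6 mice.

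Among 10 genes that draw off the intermediates, 1 rose and 1 fell in Cre- mice, and 0 rose and 1 fell in BATdKO mice. Of 5 regulators, 1 rose and 0 fell in each genotype. Of all tested genes 5.57% were called higher and 3.59% lower in Cre- mice, and 3.76% and 3.31% in BATdKO mice. Chpt1, which turns diacylglycerol into phosphatidylcholine, rose by 0.75 in Cre- mice (SE 0.17, adjusted p = 0.0076), and its value in BATdKO mice was 0.33. Dgkd, a kinase that returns diacylglycerol to phosphatidic acid, fell by 0.51 on the log2 scale in Cre- (SE 0.15, adjusted p = 0.0343) and by 0.85 in BATdKO mice (SE 0.14, adjusted p = 0.000497). Bscl2, which encodes the lipid droplet protein seipin, rose by 0.58 (SE 0.08, adjusted p = 1.74e-05) and 0.32 (SE 0.08, adjusted p = 0.0138). None of the 4 other enzymes of the same steps that were tested, Agpat5, Lclat1, Lpin3 and Tmem68, passed in any of the 5 comparisons with all mice by edgeR.

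**Figure D5:**
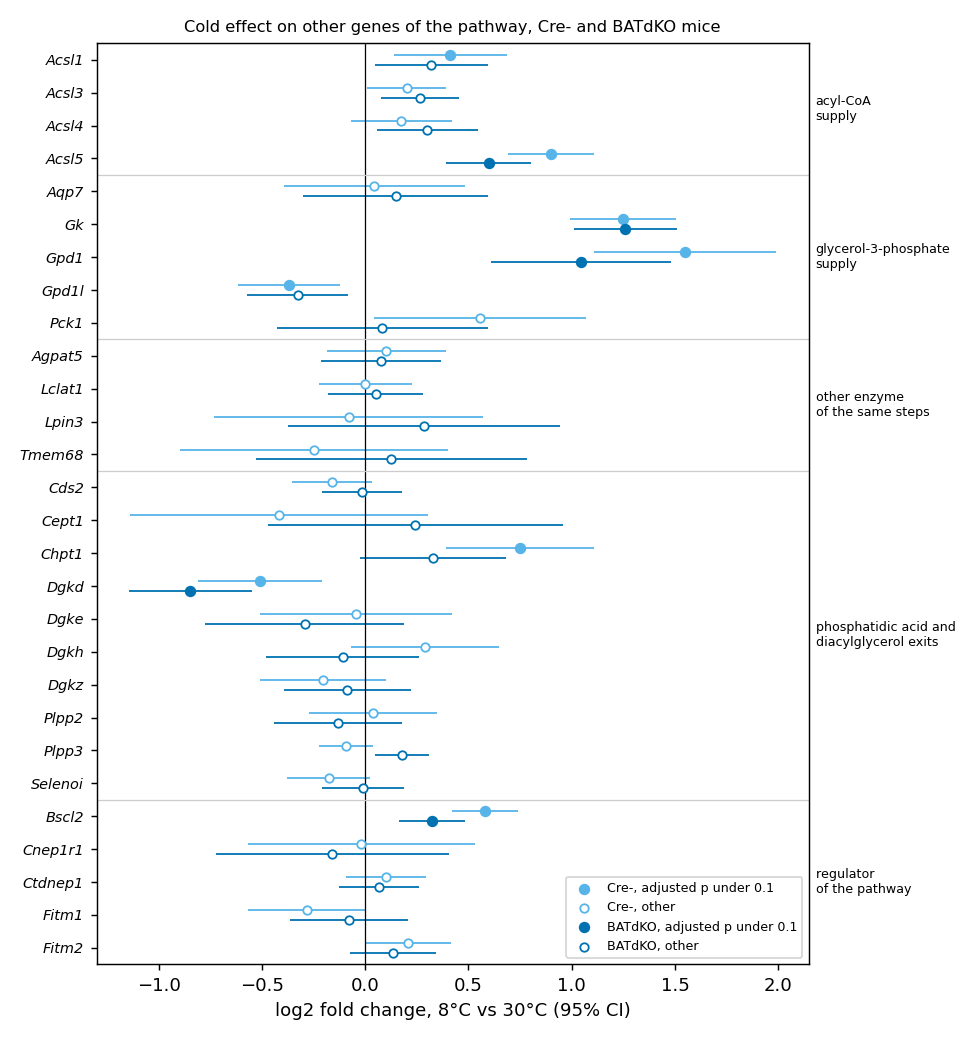
Log2 fold change at 8°C against 30°C with its 95% confidence interval (horizontal axis) for the 28 other pathway genes, grouped by role (rows), in Cre- (light blue) and BATdKO mice (dark blue), with filled points for an adjusted p under 0.1 by edgeR. Gk and Gpd1 lie farthest to the right, at 1.25 and 1.55 in Cre- mice, and Dgkd farthest to the left among the filled points, at -0.51 and -0.85.

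The genes most like Dgat2 over the 24 libraries were found by the root mean square difference of log2 CPM after each gene's mean was removed. They were Phf5a, a component of a splicing complex (0.20), Cbr1, a carbonyl reductase (0.21), Psma1, a proteasome subunit (0.25), Bcl6, a transcriptional repressor (0.26), and Prkaca, a catalytic subunit of protein kinase A (0.27). Phf5a ranged from 66.1 to 98.0 CPM in BATdKO 8C and from 46.7 to 51.7 CPM in Cre- 8C, and Cbr1 from 94.3 to 139.2 and from 63.5 to 71.7 CPM, with no overlap for either. Both genes were picked for their likeness to Dgat2 in the same libraries, so this separation follows from the choice. None of the other 8 enzymes was as close. Lpin1 ranked 90th of the tested genes at 0.34 and Dgat1 347th at 0.39, whereas Agpat2 and Gpat3 were far from Dgat2 at 0.80 and 0.84.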

How the data were processed

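BAT RNA of 24 mice was prepared with the QuantSeq 3′ mRNA-Seq FWD kit. The forward reads were trimmed (BBDuk), aligned to GRCm38 (STAR) and assigned to genes (Rsubread), and the raw counts were deposited by the authors with no scaling. The study describes removal of outliers, which its text does not name, and all 24 deposited libraries were used here. The annotation release and strand setting are not given in the sources used here. Columns were matched to samples by the sample descriptions, with 0 columns unmatched, and groups were taken from the labels. The labels number the mice but name no litter or batch, so p-values measure the spread between these mice.

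The fits used edgeR 4.0.16 (limma 3.58.1, R 4.3.3) with TMM scaling, filterByExpr on the 4 groups (12485 genes kept, 130 removed) and a quasi-likelihood fit with a mean for each group. The comparisons were genotype at each temperature, cold in each genotype and their interaction, with Benjamini-Hochberg adjustment over all tested genes and a threshold of 0.1. Each SE is the log2 fold change over the root of its F statistic. CPM use TMM library sizes, and log2 CPM a prior count of 2. A planned permutation test of Dgat2 and of its ratio to Dgat1 at 30°C was not used, because the Cre- 30C values of Dgat2 entered its choice. Symbols were matched for 12608 of 12615 genes, and positions and overlaps were taken from GENCODE vM21 on GRCm38. Simulated counts with known changes were used to test both tools.

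Members and gene lists were chosen with earlier results of these data known. Genes named are the 9 enzymes, both targeted genes, Ucp1, the called genes of the pathway list and the 5 genes closest to Dgat2. Pck1, the uncalled pathway values, Ighm, Cidea, Adrb3 and Dio2 were named after their values were seen. Alternatives were DESeq2 1.42.0, RLE scaling, no filter, a minimum mean normalized count of 10, robust dispersion, only the groups compared, and leaving out each mouse. Leaving out both m6 mice at 30°C was added after the data were seen.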

Additional observations from a re-analysis of the deposited data

Results flagged for a closer look

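A single mouse stood apart from the other 5 of its group, by the gap to its nearest neighbour as a share of the group's range on the log2 CPM scale (Dixon's test at 95%), in 7 of 36 combinations of enzyme and group. Chance flags about 1 in 20 groups. For Dgat2, Cre- 30C m6 had 399.4 CPM against 264.7 in the next mouse, Cre- 8C m3 had 304.2 against 272, and BATdKO 8C m1 had 672.2 against 508.7. BATdKO 8C m1 was also the highest for Dgat1, at 88.9 CPM against 69.1. Agpat2 in BATdKO 30C m6 was at 13.2 CPM against 68.6 in the next lowest mouse. Lpin2 in BATdKO 8C m5 was at 216.5 CPM against 173.6. Gpat3 had 0 CPM in Cre- 30C m4, the shallowest library, against 1.89 in the next mouse. Leaving out BATdKO 8C m1 gave a log2 fold change of 0.87 for Dgat2 between the labelled genotypes at 8°C.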

How the results depend on the processing

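No paired analysis was possible because the labels give each mouse its own number and same-position mice of different groups share nothing else. The 9 enzymes gave 45 values per setting. RLE scaling and the minimum mean count changed no call and no sign among them, and neither scaling moved the median of all genes by as much as 0.1 on the log2 scale. For cold in BATdKO mice 3 enzymes were called with robust dispersion and 3 with only the groups compared, against 5. These settings called 6.94% and 7.44% of all tested genes. For cold in Cre- mice only the groups compared left Gpat4 uncalled (adjusted p = 0.125), which gave 4 against 5, beside 7.66% of all tested genes. In BATdKO mice Agpat2 was not called by DESeq2 (adjusted p = 0.116) or without a filter (adjusted p = 0.101). For genotype at 8°C, fitting only the groups compared called 1 enzyme (Lpin1) and 2 pathway genes, and DESeq2 called 2 pathway genes. These fits called 4.01% and 2.29% of all tested genes. For genotype at 30°C DESeq2 called 1 pathway gene, beside 0.807% of all tested genes. The cause of these changes was not tested.

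Leaving out both m6 mice moved most. It called 1 enzyme and 2 pathway genes for genotype at 8°C, 2 and 3 for genotype at 30°C, and 1 and 1 for the interaction. In that fit 2.59%, 4% and 0.352% of all tested genes were called, or 324, 500 and 44 genes against 227, 0 and 12 with all mice. For cold in Cre- mice, leaving both out called 6 enzymes against 5, beside 13.2% of all tested genes. It gave 0.348 for Dgat2 at 30°C (mean log2 CPM). Among the enzymes 5 calls were gained, 0 were lost, and signs turned for values near 0, namely Gpat3 for cold in Cre- mice (0.132), Gpam (-0.0896) and Lpin2 (-0.0727) for genotype at 30°C, and Gpam for the interaction (0.0333).

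With 1 mouse left out in turn, the enzymes called numbered 0 to 1 for genotype at 8°C and 2 to 5 for cold in BATdKO mice, lowest (2) without BATdKO 30C m2 or BATdKO 8C m1, m2 or m4, and 3 without BATdKO 30C m3 or m5. Pathway genes called numbered 1 to 2 for genotype at 8°C and 0 to 4 for genotype at 30°C. The 4 came without Cre- 30C m6, where 2.95% of all tested genes were called. Over these fits the share of tested genes called ran from 1.1 to 2.2% for genotype at 8°C and from 4.59 to 8.54% for cold in BATdKO mice. Dgat2 at 30°C ranged from 0.106 to 0.273. Values whose sign turned had log2 fold changes near 0. For genotype at 8°C they were Dgat1 (-0.0174 to 0.102) and Gpat3 (-0.053 to 0.261). For cold they were Gpat3 (-0.126 to 0.144) and Lpin2 (-0.11 to 0.00858) in Cre- mice and Lpin2 (-0.054 to 0.0781) in BATdKO mice. At 30°C they were Gpam (-0.0692 to 0.0907) and Lpin2 (-0.0516 to 0.0809), and for the interaction Gpam (-0.147 to 0.0129) and Lpin2 (-0.00433 to 0.135). Of 1080 such values, 40 lost a call, 1 gained one and 19 changed sign. Depth limits Gpat3 most, with at most 51 counts in a library.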
